A study of Arabidopsis thaliana with 6 samples.

Results

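The nuclear genes of the photosystems and their light-harvesting antennae were followed in whole Arabidopsis thaliana seedlings, with 3 arrays of the mutant naa20-1 and 3 of the wild type Col-0. The set was the nuclear LHCA, LHCB, PSA and PSB genes given by locus code, and all 43 codes were found among the 27827 probe sets of the deposited table. They were 6 LHCA genes and 14 LHCB genes, the antennae of photosystem I and photosystem II, and 12 PSA genes and 11 PSB genes, which encode other subunits of photosystem I and photosystem II. The members were chosen by gene family, with earlier results of these data known. Both genotypes were grown untreated for 17 days on MS medium of 1x strength with 8.5 h of light a day at 100 µE, and total RNA was hybridised as biotin-labelled cRNA. The series' design text describes naa20-1 as short of the active subunit of NatB, the complex that acetylates the N-termini of many proteins. The labels do not state the kind of allele, the number of seedlings behind a sample or the hour of harvest. They also do not say whether the 3 samples of a genotype are separate cultures, so the spread behind each p-value may be technical.

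Photosystem II takes electrons from water at its oxygen-evolving complex, and photosystem I passes them on to ferredoxin. The chlorophyll-binding proteins of the LHC family surround both photosystems and feed them with excitation energy. Their reaction centre proteins are encoded in the chloroplast and were not analysed here, whereas the antenna proteins, the extrinsic proteins of the oxygen-evolving complex and many small subunits are encoded in the nucleus and imported. The nuclear genes are strongly expressed in green tissue, respond to light and signals from the plastid, and many of the LHC genes follow the circadian clock.

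None of the 43 genes passed the test in either direction. Values are log2 expression after RMA, a difference is naa20-1 minus Col-0, and the threshold for a call was an adjusted p of 0.05 in limma, with Benjamini-Hochberg adjustment over the 27241 probe sets that matched the gene table. Under this rule 1.15% of all tested genes were called, 0.382% higher and 0.767% lower in naa20-1. At an unadjusted p under 0.05, 3 members had lower values in naa20-1 (LHCB1.3, LHCB1.4 and LHCB2.3), where 7.19% of all tested genes did, and 1 had higher values (PSBP2), where 7.02% did. That made 4 of 43, against 14.2% of all tested genes in either direction. The smallest adjusted p among the members was 0.131, that of PSBP2. With a variance trend and a robust fit in limma, 1 member was called, LHCB1.3 (adjusted p = 0.0428), while 2.93% of the genes tested were called.

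The differences were small and leaned to one side. They were below 0 in 36 of the 43 members, where 48.8% of all tested genes had a difference below 0. The median difference of the members was -0.08 and that of all tested genes was 0.01. The mean deviation of the 43 members from their Col-0 means was -0.043, 0.018 and 0.025 in Col-0 replicates 1, 2 and 3. In the naa20-1 replicates it was -0.076, -0.07 and -0.089. The groups were apart, but Col-0 replicate 1 lay closer to naa20-1 replicates 1 and 2 than to the other Col-0 arrays. The members are not counted as independent measurements. In 16 members all 3 naa20-1 values lay below all 3 Col-0 values, which is 37.2% of the members, and the same held for 10.5% of all tested genes. In 1 member, PSBP2, all 3 lay above, a pattern shown by 10.6% of all tested genes. In the remaining 26 members the groups overlapped. The 95% interval of the difference lay within 1 on the log2 scale, a 2-fold change, in all 43 members (96.5% of all tested genes), and within 0.5 in 39 of them (69.4% of all tested genes). The 4 with a wider interval were LHCA1, LHCB1.1, LHCB1.4 and PSBP2.

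**Figure D1:**
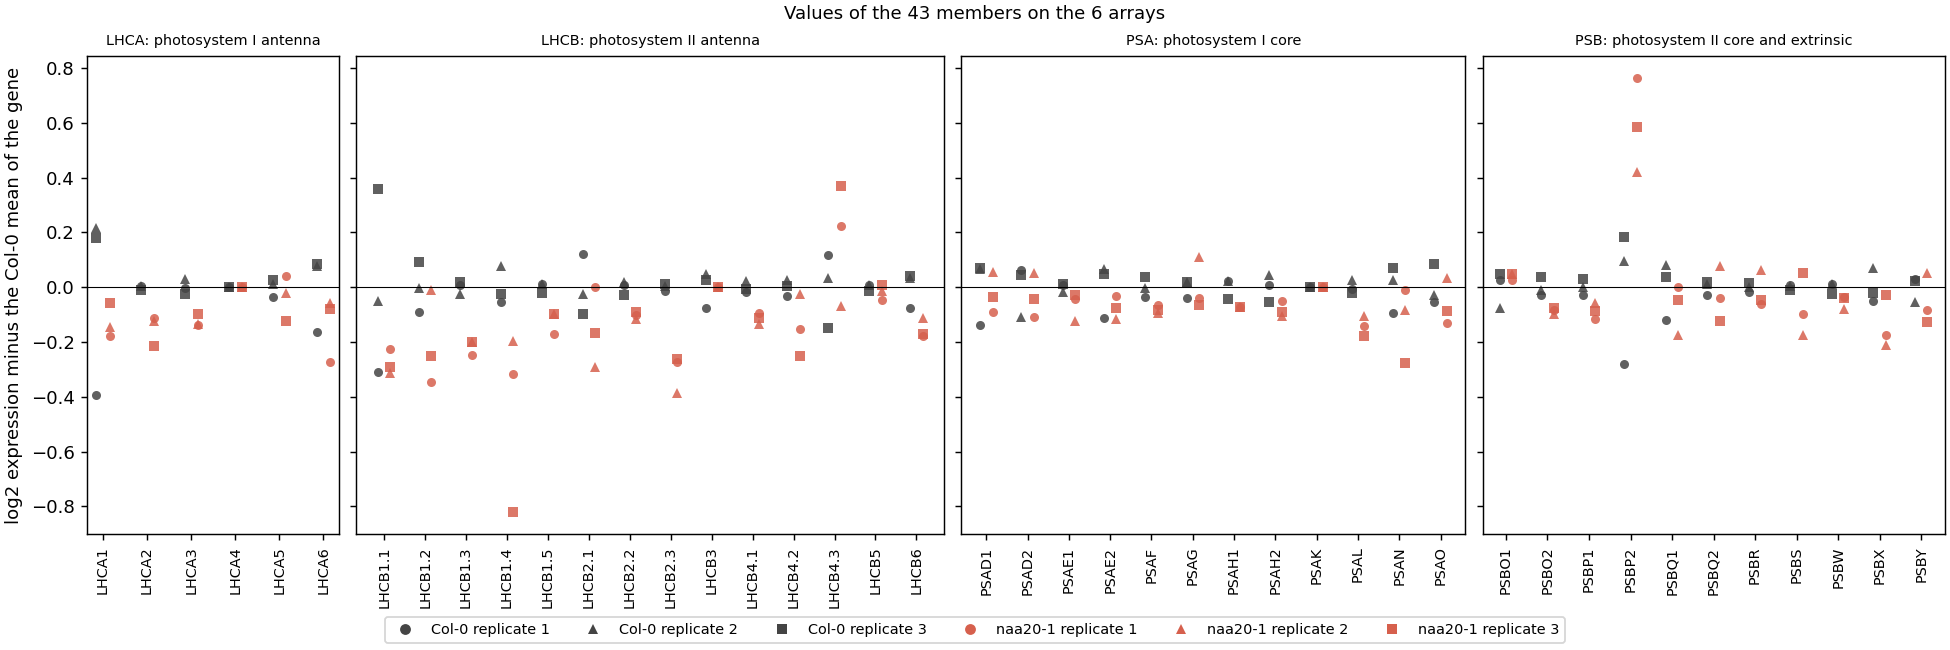
Each point is the log2 value of a gene on 1 array minus the mean of the 3 Col-0 arrays for that gene, with Col-0 in grey and naa20-1 in red and a symbol for each replicate. Most red points of the LHCB genes lie just below 0, PSBP2 is the member whose 3 red points all lie above the grey ones, and the lowest point is LHCB1.4 in naa20-1 replicate 3.

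The major trimeric antenna of photosystem II is built from the LHCB1, LHCB2 and LHCB3 proteins. LHCB1 is encoded by 5 genes that are near-identical copies, of which LHCB1.1, LHCB1.2 and LHCB1.3 are immediate neighbours on chromosome 1 and LHCB1.4 and LHCB1.5 on chromosome 2. Whether their probe sets share signal could not be checked here, and the 5 genes are not counted as independent measurements. All 5 had a difference below 0.

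LHCB1.3 (AT1G29930) stood at 11.72, 11.69 and 11.73 in Col-0 and at 11.47, 11.52 and 11.52 in naa20-1. The groups were well apart, and the difference was -0.22 (SE 0.08, limma adjusted p = 0.268). LHCB1.4 (AT2G34430) stood at 11.77, 11.90 and 11.80 in Col-0 and at 11.51, 11.63 and 11.00 in naa20-1. Its difference of -0.45 (SE 0.16, limma adjusted p = 0.274) was the lowest of the 43 members, and naa20-1 replicate 3 was far below the other mutant samples. Without that sample the difference was -0.26 (limma adjusted p = 0.308), and the groups did not overlap either way.

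LHCB1.5 (AT2G34420), the brightest of the LHCB1 probe sets, stood at 12.93, 12.93 and 12.90 in Col-0 and at 12.75, 12.82 and 12.82 in naa20-1, with no overlap and a difference of -0.12 (SE 0.08). LHCB1.2 (AT1G29910) ranged from 10.56 to 10.74 in Col-0 and from 10.31 to 10.64 in naa20-1, and the ranges overlapped (difference -0.20, SE 0.11). LHCB1.1 (AT1G29920) ranged from 3.36 to 4.02 in Col-0 and from 3.35 to 3.44 in naa20-1. These values lie around 3.72, the 25th percentile of the table. Without detection calls it is not known whether they exceed background. The difference was -0.28 (SE 0.16). It was -0.10 without Col-0 replicate 3 and -0.43 without Col-0 replicate 1.

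LHCB2 is the partner of LHCB1 in the trimer that is phosphorylated when excitation is shifted between the photosystems. LHCB2.3 (AT3G27690) stood at 7.35, 7.37 and 7.38 in Col-0 and at 7.09, 6.98 and 7.11 in naa20-1. The Col-0 samples were nearly alike and all mutant samples lay below them. The difference was -0.31 (SE 0.08, 80.8% of the Col-0 level), and the limma adjusted p was 0.150. LHCB2.2 (AT2G05070) stood at 12.95, 12.96 and 12.92 in Col-0 and at 12.84, 12.83 and 12.85 in naa20-1, again without overlap but with a smaller difference of -0.10 (SE 0.08). LHCB2.1 (AT2G05100) overlapped, with 8.04 to 8.25 in Col-0 and 7.84 to 8.13 in naa20-1 (difference -0.15, SE 0.11). The LHCB2 genes resemble each other closely, and what each probe set measures is uncertain to that extent.

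LHCB3, the third trimer protein, had a difference of 0.00. The monomeric antenna proteins LHCB4, LHCB5 and LHCB6 link the trimers to the core of photosystem II. LHCB4.1 (AT5G01530) stood at 11.55, 11.59 and 11.56 in Col-0 and at 11.47, 11.43 and 11.45 in naa20-1, with no overlap and a difference of -0.11 (SE 0.08). LHCB6 was likewise without overlap, at 11.70 to 11.81 in Col-0 and 11.59 to 11.66 in naa20-1 (difference -0.15, SE 0.08). LHCB4.2 (AT3G08940) overlapped at 11.47 to 11.53 and 11.25 to 11.48 (difference -0.14, SE 0.09), and LHCB5 had a difference of -0.02. The LHCB member with the highest difference was LHCB4.3 (AT2G40100), at 4.64, 4.55 and 4.37 in Col-0 and 4.75, 4.46 and 4.89 in naa20-1. The groups overlapped (difference 0.18, SE 0.13, limma adjusted p = 0.619), and the probe set was among the dimmest of the 43.

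LHCA1 to LHCA4 form the belt of antenna proteins on one side of photosystem I. LHCA2 (AT3G61470) stood at 12.68, 12.68 and 12.66 in Col-0 and at 12.56, 12.55 and 12.46 in naa20-1, and LHCA3 (AT1G61520) at 10.66, 10.69 and 10.64 against 10.53, 10.53 and 10.57. In both genes every mutant sample lay below every Col-0 sample, by differences of -0.15 (SE 0.08, limma adjusted p = 0.456) and -0.12 (SE 0.08, limma adjusted p = 0.535). LHCA1 was noisy in Col-0, at 5.73, 6.34 and 6.31, and its mutant values of 5.95, 5.99 and 6.07 fell inside that range. These values lie around the median of the arrays (6.12), far below the other LHCA probe sets. What the LHCA1 probe set measures is uncertain to that extent. LHCA5 and LHCA6 are minor forms that help to join photosystem I to the chloroplast NADH dehydrogenase-like complex. LHCA6 (AT1G19150) overlapped, at 9.51 to 9.75 in Col-0 and 9.39 to 9.61 in naa20-1 (difference -0.14, SE 0.11), and LHCA5 had a difference of -0.03. LHCA4 (AT3G47470) was at 14.1 on every array.

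Among the subunits of photosystem I outside the antenna, 10 of 12 differences were below 0, all 12 intervals lay within 0.5 (69.4% of all tested genes), and in 4 genes the mutant samples all lay below the Col-0 samples (10.5% of all tested genes). The lowest difference was that of PSAL (AT4G12800), a subunit at the docking site of the mobile antenna. It stood at 12.08, 12.11 and 12.06 in Col-0 and at 11.94, 11.98 and 11.91 in naa20-1 (difference -0.14, SE 0.08, limma adjusted p = 0.475). PSAF, which takes part in binding plastocyanin, was at 12.34 to 12.41 in Col-0 and 12.28 to 12.31 in naa20-1, also without overlap (difference -0.08, SE 0.08). PSAN (AT5G64040), on the lumen side, had a difference of -0.12 (SE 0.10). The groups overlapped there, and naa20-1 replicate 3 was the lowest sample at 11.88; without it the difference was -0.05. PSAG (AT1G55670) had a difference of 0.00 (SE 0.09), and PSAO and PSAK differed by -0.06 and 0.00.

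Several subunits of photosystem I are encoded by gene pairs, and the copies of a pair were close to each other in their differences. PSAD, where ferredoxin docks, had a difference of -0.02 (SE 0.10) for PSAD1 (AT4G02770) and -0.03 (SE 0.09) for PSAD2 (AT1G03130), and both overlapped. PSAE, next to it, had -0.06 (SE 0.08) for PSAE1 (AT4G28750), whose groups did not overlap, and -0.07 (SE 0.09) for PSAE2 (AT2G20260), whose groups did. PSAH, needed for docking of the mobile antenna, had -0.07 (SE 0.08) for PSAH1 (AT3G16140) without overlap and -0.08 (SE 0.08) for PSAH2 (AT1G52230) with overlap.

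PSAD2 lies on chromosome 1 with 1 gene between it and NAA20 (AT1G03150), the gene for the catalytic subunit. NAA20 was at 8.79, 8.75 and 8.72 in Col-0 and at 8.10, 7.60 and 7.36 in naa20-1, a difference of -1.07 (SE 0.18, limma adjusted p = 0.0407), which lost its call in all but 1 of the fits that left out a sample (limma adjusted p from 0.0181 to 0.135). PSAD2 stood at 8.99, 8.82 and 8.97 in Col-0 and at 8.82, 8.98 and 8.89 in naa20-1. The interval of its difference ran from -0.25 to 0.18, which leaves out a difference of the size seen at NAA20.

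**Figure D2:**
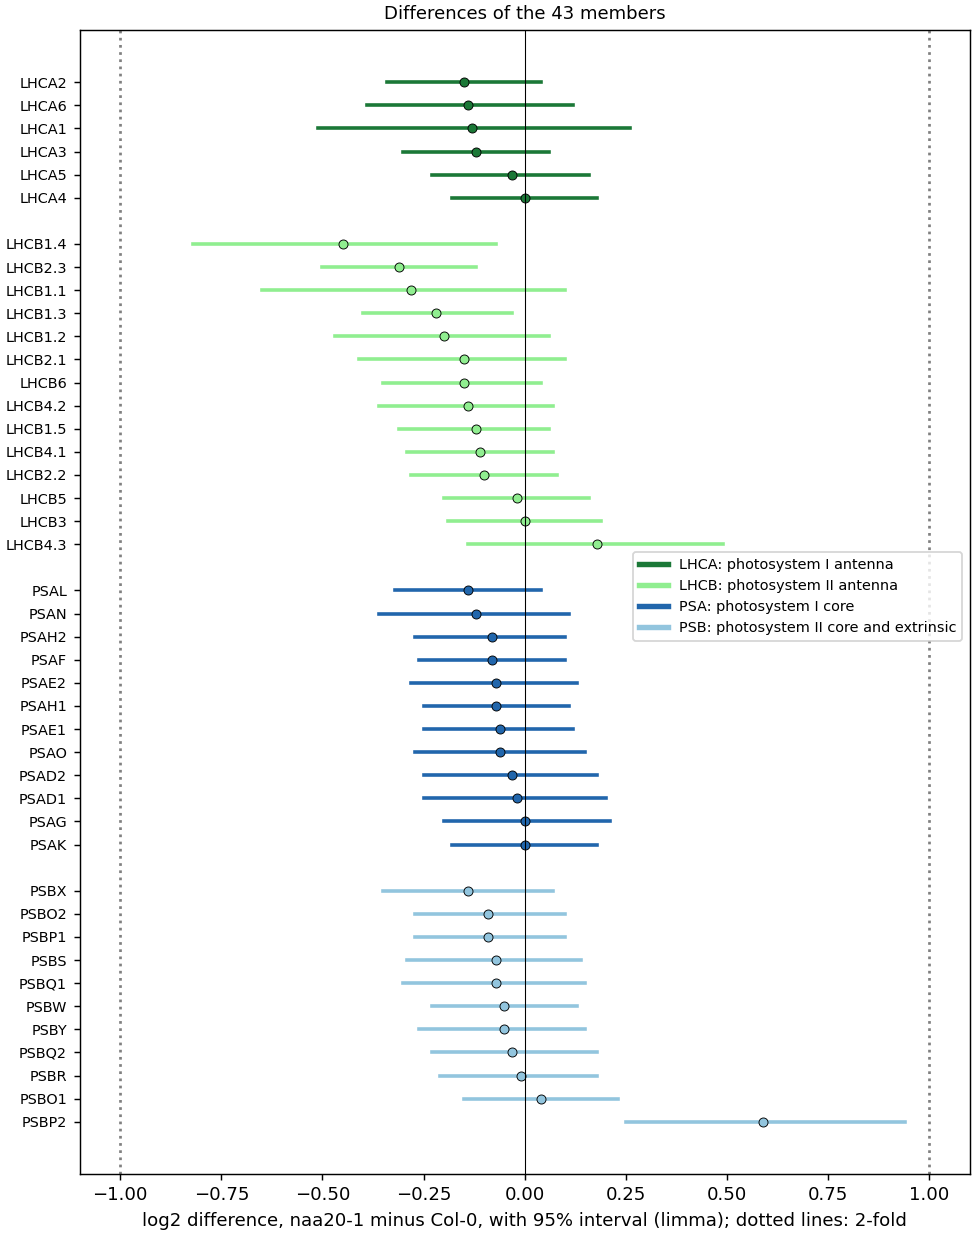
Points are log2 differences of naa20-1 minus Col-0 for the 43 genes, sorted within each class, lines are 95% intervals from limma (3 arrays against 3), and dotted lines mark a 2-fold change. Every interval lies inside the dotted lines, those of LHCB1.3, LHCB1.4 and LHCB2.3 end below 0, and that of PSBP2 starts above 0.

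The oxygen-evolving complex of photosystem II is shielded by the extrinsic proteins PSBO, PSBP and PSBQ, each with a pair of genes among the members. The RNA values do not show whether both genes of a pair give a working protein. PSBP2 (AT2G30790) was the member with the highest difference of all 43. It stood at 6.14, 6.51 and 6.60 in Col-0 and at 7.18, 6.84 and 7.00 in naa20-1. The median of the arrays was 6.12, so the probe set was of middling brightness, far dimmer than that of PSBP1. All mutant samples lay above the Col-0 samples, by a mean of 0.59 (SE 0.15, 151% of the Col-0 level, 95% interval 0.25 to 0.94), and the limma adjusted p of 0.131 did not pass. Leaving out each sample in turn gave differences from 0.45 to 0.68.

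The other PSBP gene, PSBP1 (AT1G06680), lay on the other side of 0. It was at 12.47, 12.50 and 12.53 in Col-0 and 12.38, 12.44 and 12.41 in naa20-1 (difference -0.09, SE 0.08), with no overlap. Whether the differences of the 2 copies differ was not tested. PSBO1 (AT5G66570), which stabilises the manganese cluster, had a difference of 0.04 (SE 0.08) with overlap, and PSBO2 (AT3G50820) one of -0.09 (SE 0.08) without overlap, at 11.68 to 11.74 in Col-0 and 11.61 to 11.63 in naa20-1. PSBQ1 (AT4G21280, PSBQA in the gene table) and PSBQ2 (AT4G05180) overlapped, with differences of -0.07 (SE 0.10) and -0.03 (SE 0.09).

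The other PSB genes encode small or associated subunits. PSBX (AT2G06520), a small membrane subunit, had the lowest difference among them, -0.14 (SE 0.09, limma adjusted p = 0.559), with 10.79 to 10.91 in Col-0 and 10.63 to 10.81 in naa20-1. PSBW was without overlap at 12.78 to 12.82 in Col-0 and 12.72 to 12.77 in naa20-1 (difference -0.05, SE 0.08). PSBS, the protein needed for rapid thermal dissipation of excess light, was at 10.72, 10.71 and 10.70 in Col-0 and 10.61, 10.54 and 10.76 in naa20-1. Its replicate 3 lay above and the other mutant samples below the Col-0 samples, with a difference of -0.07 (SE 0.09). PSBR and PSBY had differences of -0.01 and -0.05.

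Photosystem I was set against photosystem II with the antenna counted to its photosystem. The median difference was -0.07 over the 18 genes of photosystem I and -0.09 over the 25 genes of photosystem II, with 15 and 21 differences below 0. For each array the mean deviation from the Col-0 means was taken over each photosystem. The value of photosystem I minus that of photosystem II was -0.019, 0.012 and 0.007 in the Col-0 arrays and -0.007, 0.032 and 0.000 in the naa20-1 arrays. The groups overlapped, and the mean difference of 0.008 was smaller than the SD over the arrays of a group (0.017 in Col-0 and 0.021 in naa20-1). Its sign followed from which genes entered, being 0.036 without PSBP2 and -0.039 when the LHCB1 and the LHCB2 copies were each averaged to 1 value.

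The antenna was set against the core and extrinsic subunits in the same way. The median difference was -0.13 over the 20 antenna genes and -0.06 over the 23 others, with 17 and 19 differences below 0 and with 9 and 7 genes whose mutant samples all lay below Col-0 (10.5% of all tested genes). The mean deviation of the antenna genes was -0.13, -0.12 and -0.15 in naa20-1 replicates 1, 2 and 3, and that of the others was -0.03, -0.03 and -0.04. Antenna minus others was therefore -0.099, -0.097 and -0.106 in the naa20-1 arrays, against -0.012, 0.015 and -0.003 in the Col-0 arrays. The groups were apart and the 3 mutant arrays nearly alike. No p-value is given for this score, since its members were chosen with results of these data known.

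The size of that contrast depended on a few genes. With PSBP2 the mean difference of the core and extrinsic subunits was -0.03, and without it -0.06. Without it the naa20-1 arrays were at -0.063, -0.076 and -0.078 and the Col-0 arrays at -0.023, 0.019 and 0.004, still apart. The mean contrast was -0.101 with all genes, -0.072 without PSBP2, -0.067 from medians, and -0.058 when the near-identical LHCB1 and LHCB2 copies were each averaged to 1 value.

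**Figure D3:**
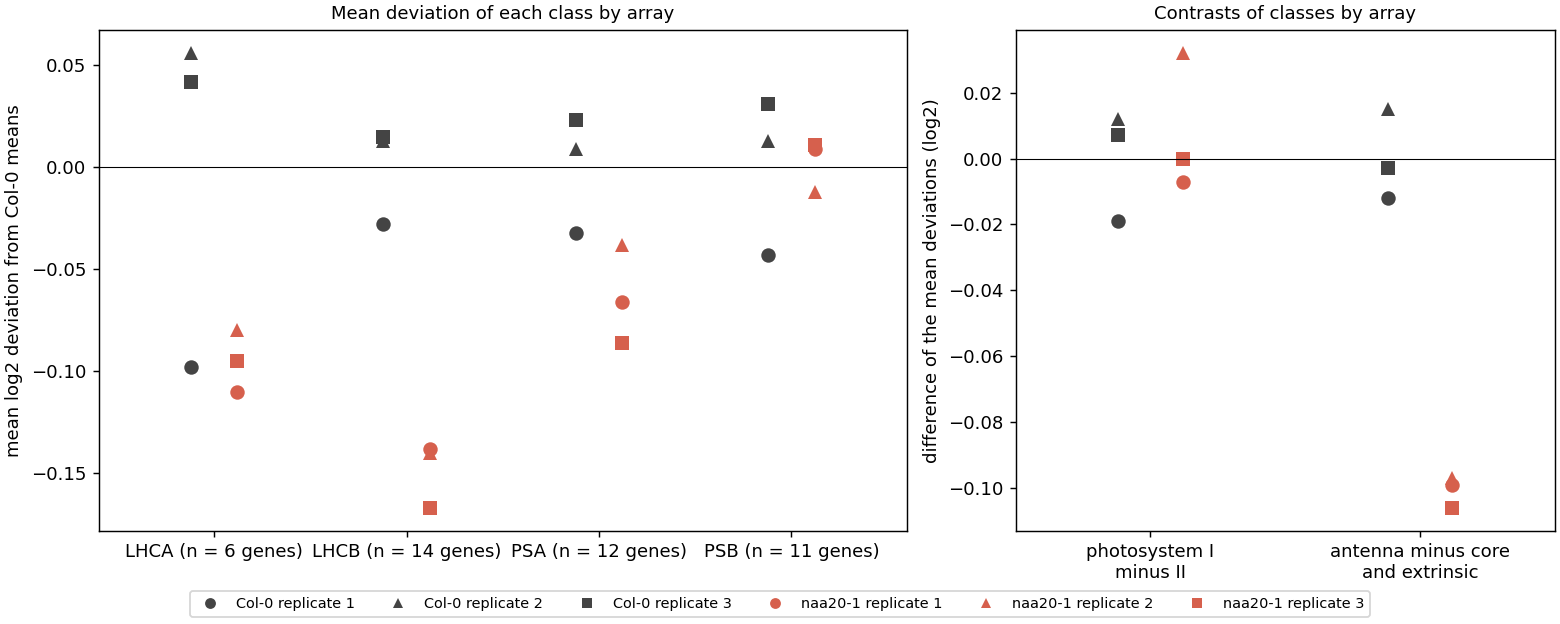
On the left, each point is the mean log2 deviation of a class of genes from the Col-0 means on 1 array, with Col-0 in grey and naa20-1 in red. On the right, each point is the difference between classes on 1 array, and the naa20-1 arrays lie at -0.097 to -0.106 for antenna minus core and extrinsic subunits and overlap with Col-0 for photosystem I minus II.

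By class, the LHCB genes had the lowest median difference (-0.15), followed by LHCA (-0.12), PSA (-0.07) and PSB (-0.05). The mean deviations of the LHCB genes were -0.14, -0.14 and -0.17 in the naa20-1 arrays and -0.03, 0.01 and 0.02 in the Col-0 arrays. The LHCA genes were at -0.11, -0.08 and -0.10 in naa20-1, but Col-0 replicate 1 was at -0.10 as well, mostly through LHCA1, so that this class overlapped. The PSA genes were at -0.07, -0.04 and -0.09 in naa20-1 and -0.03, 0.01 and 0.02 in Col-0. The PSB genes overlapped, at 0.01, -0.01 and 0.01 in naa20-1 and -0.04, 0.01 and 0.03 in Col-0. Without PSBP2 the naa20-1 arrays were at -0.07, -0.06 and -0.05 and the Col-0 arrays at -0.02, 0.00 and 0.02, without overlap.

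Many members sit at the top of the array's range, and this limits what their differences can show. On 5 arrays the same values occurred in the same number, and on naa20-1 replicate 1 the value at a given rank was off by no more than 0.0019, so a value follows from the rank of the probe set on its array. Of the 43 members, 10 were within the 100 brightest probe sets on all 6 arrays and 26 within the 1000 brightest. LHCA4 was at rank 5 and PSAK at rank 10 on every array, and only 12 probe sets in all kept 1 rank on all arrays. A difference other than 0 could not arise for these members unless a neighbouring probe set was overtaken.

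LHCB3 held ranks 18, 13 and 14 in the Col-0 arrays and 15 in all 3 naa20-1 arrays, and PSBO1 held 14, 18 and 13 in Col-0 and 14, 13 and 13 in naa20-1. Their small differences are thus moves of a few places among a handful of genes. The 10 members within the 100 brightest had differences from -0.12 to 0.04 with a median of -0.02. The 16 members from there to rank 1000 had differences from -0.45 to 0.00, 15 of them below 0, with a median of -0.10. The 17 dimmer members ranged from -0.31 to 0.59, 15 of them below 0, with a median of -0.07.

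The members were also set beside other bright genes. Of the 796 tested genes within the 1000 brightest on all arrays, 48.2% had a difference below 0 and the median was 0.00. In 15.3% of them the mutant samples all lay below Col-0, which held for 14 of the 26 members in that range (53.8%). Bright probe sets vary little, and 38 of the 43 members had a spread within the groups under the median of all tested genes. The median SD within a group was 0.0522 for the members and 0.144 for all tested genes. The standard errors of limma borrow from the spread of all genes and so did not go under 0.0761 for any member. With a variance trend and a robust fit together, the smallest standard error was 0.0342. In that fit 13 members had an unadjusted p under 0.05, where 15.1% of all tested genes did, and 12 of these had lower values in naa20-1, where 7.77% of all tested genes did. LHCB1.3 was the only member called there.

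**Figure D4:**
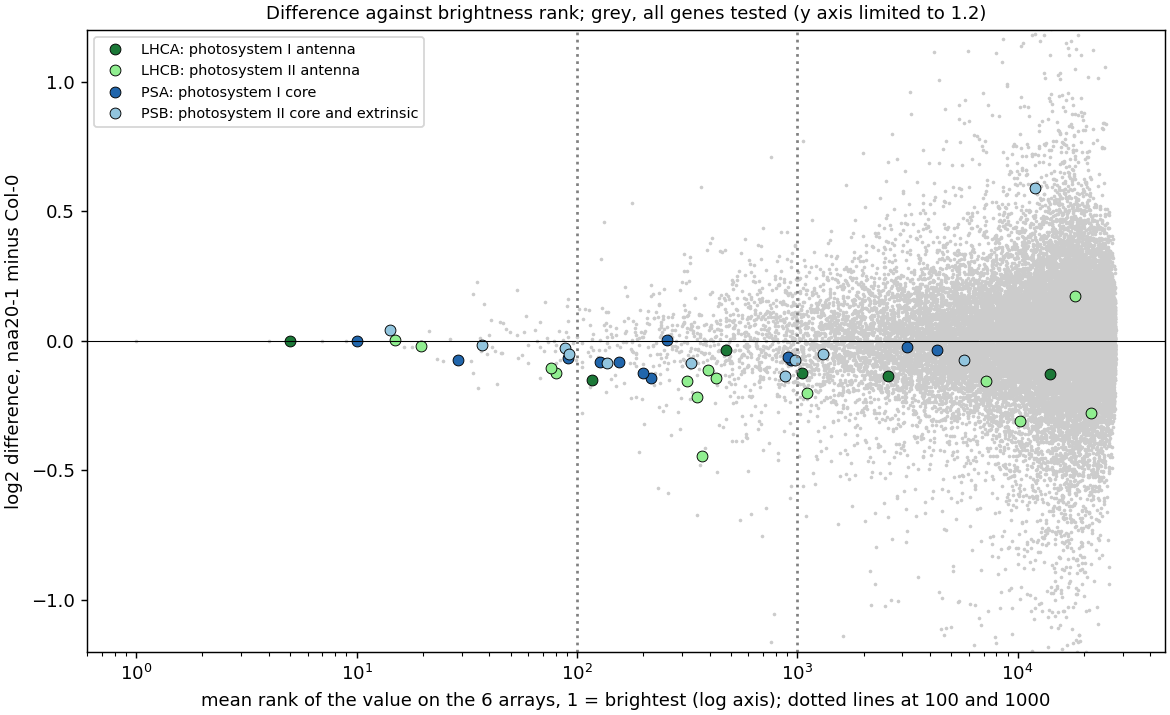
The log2 difference is plotted against the mean rank of the value on the 6 arrays (log axis, 1 is the brightest), with all tested genes in grey and the members coloured by class; the vertical axis is limited to 1.2 and leaves out more extreme genes. The 12 members left of rank 100 lie between -0.12 and 0.04, and PSBP2 stands apart at 0.59 among the dimmer genes.

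Beyond the photosystems, 89 other genes of photosynthesis were followed in 6 lists. The only one called, 1 of 89 where 1.15% of all tested genes were called, was PIF1 (AT2G20180), a transcription factor that holds back chlorophyll synthesis and other light responses in the dark. It rose from 8.32, 8.43 and 8.47 in Col-0 to 9.13, 9.03 and 9.39 in naa20-1 (1.71-fold, difference 0.77, SE 0.11, limma adjusted p = 0.0289). The samples were far apart, although the call was lost in all fits that left out a sample but the one without naa20-1 replicate 3 (limma adjusted p up to 0.109 in the others). Its relative PIF4, which promotes elongation growth, stood at 9.01, 9.04 and 9.09 in Col-0 and at 9.47, 9.56 and 9.47 in naa20-1 (difference 0.45, SE 0.08, limma adjusted p = 0.0535). It was called with the dimmest 40% of genes left out (adjusted p = 0.0215) and with a variance trend and a robust fit (adjusted p = 0.00512). PIF3 and PIF5, named after their values were seen, had differences of 0.30 (SE 0.18) and -0.01 (SE 0.08).

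The remaining 16 of the 17 regulators did not pass the test. The GLK factors, known as activators of these nuclear genes, had differences of -0.03 (SE 0.16, GLK1) and -0.10 (SE 0.08, GLK2). The clock factors CCA1 and LHY, of which CCA1 is known to bind LHCB1 promoters, had differences of -0.23 (SE 0.11, adjusted p = 0.407 in limma) and -0.09 (SE 0.11). GNC, a GATA factor known to promote greening, stood at 10.78, 10.60 and 10.71 in Col-0 and at 10.51, 10.35 and 9.86 in naa20-1. All mutant samples lay below Col-0 and replicate 3 was the lowest (difference -0.46, SE 0.17, limma adjusted p = 0.273). These 5 genes were named after their values were seen, and the part of any regulator in the members' values was not tested.

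No gene of electron transport and the ATP synthase (13 genes, median -0.05), the Calvin cycle (19, median -0.04), chlorophyll synthesis (18, median -0.01) or photosystem assembly and protein targeting (14, median -0.03) was called. In that order, 10, 13, 11 and 8 differences were below 0 (48.8% of all tested genes). All 3 mutant samples lay below Col-0 in 4, 6, 2 and 3 genes (10.5% of all tested genes). They lay above in 0, 1, 0 and 2 genes (10.6% of all tested genes). A lean below 0 was thus also seen in the electron transport and Calvin cycle genes. PGR5, of cyclic electron flow, was at 12.32, 12.33 and 12.34 in Col-0 and 12.18, 12.05 and 12.09 in naa20-1 (difference -0.22, SE 0.08, limma adjusted p = 0.274). LFNR2, a ferredoxin-NADP reductase, had a difference of -0.16 (SE 0.09). The Calvin cycle aldolase gene FBA1 was at 12.04, 12.06 and 12.04 in Col-0 and 11.72, 11.71 and 11.90 in naa20-1 (difference -0.27, SE 0.09, limma adjusted p = 0.221). SBPASE, of the same cycle, had a difference of -0.18 (SE 0.08). With a variance trend and a robust fit, PGR5 and FBA1 were called as well.

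In chlorophyll synthesis, CHLI2, a subunit of magnesium chelatase, had a difference of 0.39 (SE 0.20) with overlapping groups, and CRD1, of the cyclase step, one of -0.15 (SE 0.08). CPFTSY, the receptor that delivers LHC proteins to the thylakoid, was at 8.09, 8.14 and 8.01 in Col-0 and 8.38, 8.37 and 8.44 in naa20-1. It lay above Col-0 in all mutant samples (difference 0.32, SE 0.08, limma adjusted p = 0.147). LPA1, of photosystem II assembly, had a difference of 0.19 (SE 0.10).

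The 8 LHC-like genes encode relatives of the antenna proteins that are known to accumulate under light stress or to act in pigment supply, and 0 of them was called. ELIP1 was at 7.20, 7.10 and 7.00 in Col-0 and at 7.40, 7.44 and 9.42 in naa20-1 (difference 0.99, SE 0.49, limma adjusted p = 0.430). ELIP2, named after its values were seen, was at 7.34, 7.57 and 7.39 in Col-0 and at 7.43, 7.36 and 8.97 in naa20-1. In both genes naa20-1 replicate 3 stood far above the other mutant samples, and in ELIP1 all 3 mutant samples lay above Col-0. Replicate 3 is also the sample with the low values of LHCB1.4 and PSAN, but PSBS and LHCB4.3 had their highest mutant values there. The mean deviation of the 43 members was -0.08, -0.07 and -0.09 in naa20-1 replicates 1, 2 and 3. A link between these values was not tested. LIL3:1, of the same family, had a difference of 0.14 (SE 0.11).

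Whole seedlings hold both roots and leaves, and markers of root tissue were followed for that reason. Of 19 root markers, 0 was called, 13 had a difference below 0, 8 had lower values at an unadjusted p under 0.05 in limma (7.19% of all tested genes) and the median difference was -0.22. Of these 8, 5 were CASP genes, and 6 of the 19 went the other way, among them WOX5 at 0.23 (SE 0.12), PLT2 at 0.18 (SE 0.12) and TIP2;2 at 0.10 (SE 0.20). The mean level of the 19 was 7.07 to 7.15 in Col-0 and 6.87 to 6.91 in naa20-1. TIP2;3, a vacuolar water channel of the root, had a difference of -0.69 (SE 0.12, limma adjusted p = 0.05, just over the threshold before rounding), and CASP4, of the endodermal Casparian strip, one of -0.59 (SE 0.13, limma adjusted p = 0.102). The photosystem genes and the root markers thus both had medians below that of all tested genes. The part of tissue make-up in the members' values was not tested. In whole seedlings fewer cells of a type and less RNA per cell cannot be told apart.

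**Figure D5:**
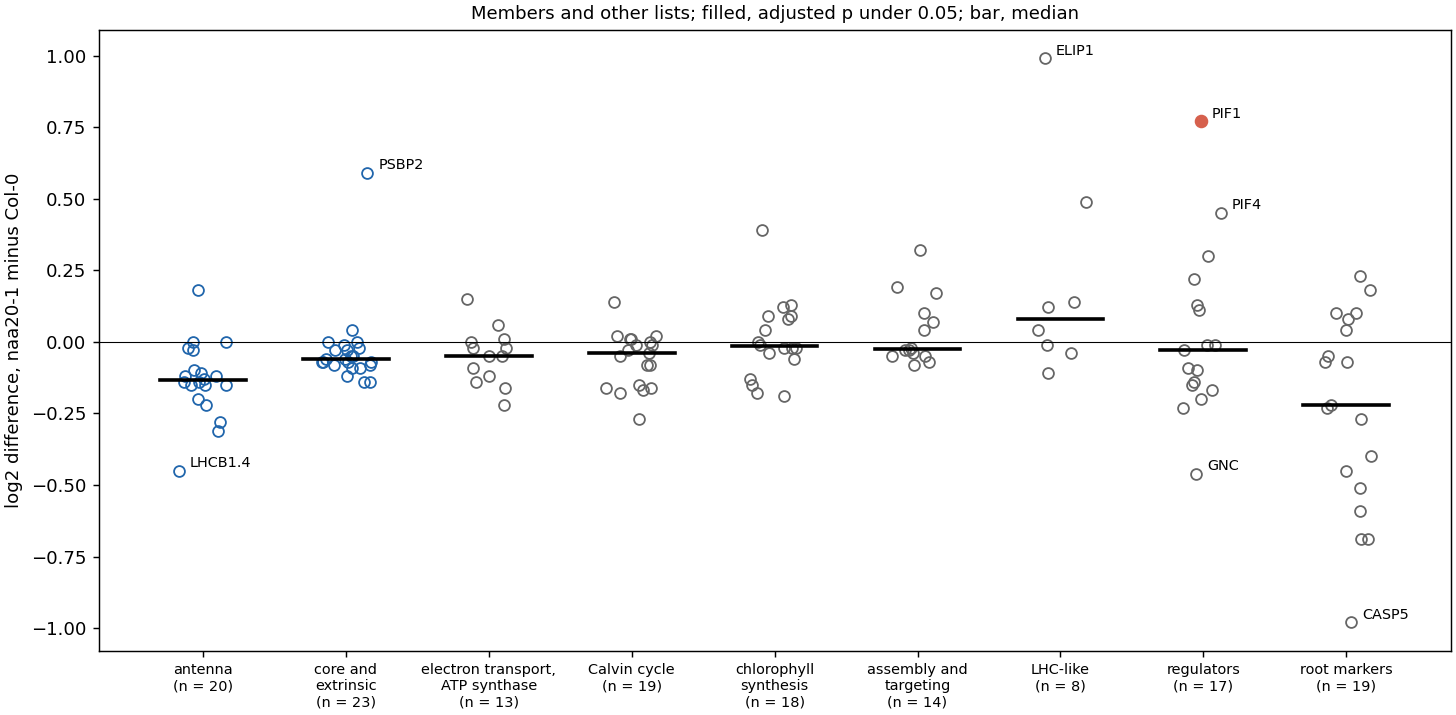
Each circle is the log2 difference of a gene, naa20-1 minus Col-0, in the antenna, the core and extrinsic subunits, 6 lists of other photosynthesis genes and the root markers; bars are medians and the filled circle, PIF1, is the only gene with an adjusted p under 0.05. The antenna genes have a median of -0.13 and the root markers one of -0.22, while the medians of the other photosynthesis lists lie between -0.05 and 0.08.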

How the data were processed

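The authors deposited log2 expression values made with RMA, per the submitters' processing notes, for 6 arrays. RMA removes background, gives the probe values of all arrays the same distribution and reduces the probes of a set to 1 value. The step that gave the probe sets near-identical sorted values on all arrays is not stated. No software, array type or probe set definition is given in the sources used here, and the table holds no detection calls. Probe sets were named by locus code, and 27241 of 27827 matched the gene table of assembly TAIR10.1, used for names and gene order only. The 586 others entered no test. The deposited values entered limma 3.58.1 (lmFit, then eBayes; R 4.3.3), with genotype as the only term and 3 arrays per group, two-sided, with Benjamini-Hochberg adjustment over the matched genes. The number of arrays limits the precision. The procedure was tested on simulated data with added shifts larger than the differences of nearly all members. That test does not tell how often differences of the members' size would be called.

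The members and lists were chosen with earlier results of these data known. Named were, in each class, the 3 members with the smallest p and the extremes in each direction, all members of paired or copied families, members whose groups did not overlap, NAA20, and in each other list up to 4 called genes or, with fewer than 2 called, the 2 with the smallest p. The other members are given briefly, and genes so marked were added after their values were seen. Class means and medians carry no test.

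Alternatives were a repeated quantile normalization, centring on the array medians, leaving out the dimmest 40% of genes, a variance trend with robust fit, all probe sets kept, a block for the replicate number, and single samples left out. Changes in the genes entering a class mean, and medians for means, were added after seeing the data.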

Additional observations from a re-analysis of the deposited data

How the results depend on the processing

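The count of 0 called members held in 11 of 12 alternatives, and was 1 with a variance trend and robust fit. Leaving out the dimmest 40% of genes kept 41 members. At an unadjusted p under 0.05 the main count was 4. The median difference of the 43 members, -0.08, ranged from -0.098 (without Col-0 replicate 1) to -0.067 when single samples were left out. Photosystem I minus II, 0.008, ranged from -0.004 to 0.016 with single samples left out and became 0.036 without PSBP2 and -0.039 with the LHCB1 and LHCB2 copies averaged. Antenna minus core and extrinsic subunits, -0.101, was -0.107 to -0.093 with single samples left out, -0.072 without PSBP2, -0.125 without the members within the 100 brightest, -0.058 with copies averaged and -0.067 from medians. Of the 89 other photosynthesis genes, 1 was called, against 2 with the dimmest 40% left out, 4 with a variance trend and robust fit, 0 with the replicate number as a block and 0 to 1 with single samples left out.

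Over all tested genes, 313 were called, 797 with a variance trend and robust fit, 190 with the replicate block and 65 to 197 with single samples left out. Samples that share a replicate number correlated at 0.0238, 0.0623 and 0.0127 in their deviations from the group means. Samples of the 2 genotypes with unlike numbers correlated at -0.0534 to 0.0234, mostly below 0. The values for shared numbers were under the limit used, 0.1, so the numbers were not taken as pairs. The block called 0 members and neither NAA20 nor PIF1 (limma adjusted p = 0.0542 for both). Near-zero differences turned sign when a sample was left out, namely PSAD1 (-0.09 to 0.01), PSAD2 (-0.09 to 0.00), PSAG (-0.05 to 0.04) and PSBQ2 (-0.08 to 0.02). The cause was not tested.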
